A study of Homo sapiens with 12 samples.

Results

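The proteasome subunit genes are the 47 genes, of 20289 in the count table, whose symbols begin PSMA, PSMB, PSMC, PSMD, PSME, PSMF or PSMG and end in a number. The set holds the subunits of the proteasome together with its dedicated activators, assembly chaperones and inhibitor. One immunoproteasome catalytic subunit was not analysed here. Of the 47 genes, 45 passed the filter on low counts, as did 12821 genes in all. The filter removed PSMA8, the testis form of an alpha subunit, with 0 counts in all 12 libraries, and PSMB11, the thymus catalytic subunit, which had 1 count in each of 2 knockdown libraries and 0 in the other 10. A floor of 3 counts was 0.121 to 0.222 CPM (counts scaled to the depth of the library) in these libraries, and covers counting error only.

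Poly(A) RNA was measured in U251, an established human glioblastoma line carrying a lentiviral short hairpin RNA, a small RNA that lowers the messenger it matches. The 4 groups of 3 libraries were a CD44 hairpin with 50 µM temozolomide, a control hairpin with 50 µM temozolomide, a CD44 hairpin with DMSO, and a control hairpin with DMSO, all for 24 h. CD44 is a cell surface receptor for hyaluronan, temozolomide is the DNA alkylating drug used in glioblastoma, and DMSO is its solvent. The control libraries with temozolomide carry the mark NC in their names and were read as control hairpin. The labels give neither the number of hairpin sequences or clones nor whether libraries of a group were separate cultures, so each p-value measures the spread between these libraries, which may be technical. A change in RNA per cell and a change in the mix of cells cannot be told apart in such bulk samples.

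The proteasome degrades proteins that carry ubiquitin chains. Its 20S core is a barrel of alpha and beta rings, in which PSMB5, PSMB6 and PSMB7 are the proteolytic subunits, and the 19S regulatory particle caps the barrel, binds ubiquitin and unfolds the substrate with a ring of ATPases. Interferon signalling induces alternative catalytic subunits, among them PSMB8 in place of PSMB5 and PSMB10 in place of PSMB7, and the activator formed by PSME1 and PSME2. Proteasomes of that kind are known for making peptides that fit MHC class I.

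The promoters of the interferon-inducible genes are shown because PSMB8 and PSMB10 among them varied most over the groups. Each line runs 5′ to 3′ on the gene's strand from 100 bases before to 20 bases after a start annotated by RefSeq on GRCh38.p14. A gene can have several such starts, and only windows that held the match described next were printed. Capitals mark a match to GAAA, any 2 letters and GAAA again or, on the other strand, TTTC, any 2 letters and TTTC, the core of the interferon-stimulated response element. The windows are chr6:32844028-32844147 (minus strand) for PSMB8, chr16:67936831-67936950 (minus) for PSMB10, chr14:24136094-24136213 (plus) for PSME1 and chr14:24146591-24146710 (minus) for PSME2.
PSMB8: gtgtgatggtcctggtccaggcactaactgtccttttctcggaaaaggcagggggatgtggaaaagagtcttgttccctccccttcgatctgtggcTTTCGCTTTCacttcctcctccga
PSMB10: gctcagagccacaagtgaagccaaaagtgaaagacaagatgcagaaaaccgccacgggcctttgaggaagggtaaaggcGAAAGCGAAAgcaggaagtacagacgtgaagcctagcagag
PSME1: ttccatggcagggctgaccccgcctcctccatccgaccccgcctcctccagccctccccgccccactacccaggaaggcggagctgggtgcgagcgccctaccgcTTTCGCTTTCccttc
PSME2: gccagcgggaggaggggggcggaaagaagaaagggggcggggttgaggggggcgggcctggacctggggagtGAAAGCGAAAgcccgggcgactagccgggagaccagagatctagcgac

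A match in each of these 4 windows was a condition of printing them and is not a result. The 2 variable letters of the match, which were not part of that condition, are the same in all 4. The element therefore reads GAAAGCGAAA on one strand or the other. RefSeq promoter windows of 300 bases, 250 before and 50 after each annotated start, were found for 41 of the 47 genes. The response element was present in 7 of the 41 (17.1%), against 1195 of the 27305 genes with a RefSeq promoter window (4.38%). Besides PSMB8, PSMB10, PSME1 and PSME2, the 7 were PSMA4, PSMB4 and PSMG4. A match to the interferon gamma-activated sequence TTCNNNGAA was found in 8 of 41 proteasome genes (19.5%) and 9.38% of all genes. A match to the antioxidant response element core TGACNNNGC, or GCNNNGTCA on the other strand, was found in 14 of 41 (34.1%) and 16.1% of all genes. CCAAT, or ATTGG, was found in 19 of 41 (46.3%) and 39.7% of all genes. These matches describe letters in a window and carry no test.

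Library totals ran from 13506946 to 24757977 estimated counts, and the biological coefficient of variation was 3.90%. CD44 fell in knockdown cells by 1.33 on the log2 scale under temozolomide and by 1.38 under DMSO (adjusted p = 1.17e-16 and 3.21e-17, edgeR quasi-likelihood test with Benjamini-Hochberg adjustment over all genes tested). VIM, SOX2 and NES, markers of glioblastoma lines, were present in every library, while GFAP had 4 to 27.4 counts. Their levels were not steady. With the knockdown, NES rose by 0.73 under temozolomide and 0.86 under DMSO, and VIM by 0.32 and 0.19. SOX2 fell by 0.54 and 0.42 in the same order, and GFAP was not called. With temozolomide, CD44 itself fell by 0.36 in knockdown and 0.41 in control cells, VIM by 0.29 and 0.42, and NES by 0.43 and 0.30. SOX2 and GFAP were not called for temozolomide in either kind of cell. Of the markers of other cells, PTPRC had 4 to 12 counts and PECAM1 2 to 18. CD68 had 23.7 to 27.1 CPM in knockdown temozolomide, 13.4 to 15.7 in control temozolomide, 22.1 to 25.5 in knockdown DMSO and 14.9 to 16.7 in control DMSO libraries. The summed level of the 2 of these 3 markers that passed the filter was 24.3 to 27.96 CPM in knockdown temozolomide, 13.5 to 15.9 in control temozolomide, 22.7 to 26.4 in knockdown DMSO and 15.3 to 17.0 in control DMSO libraries. CD68 rose with the knockdown under both treatments. PECAM1 had 15, 13 and 6 counts in knockdown temozolomide, 5, 2 and 2 in control temozolomide, 9, 10 and 18 in knockdown DMSO, and 6, 6 and 5 in control DMSO libraries. It rose with the knockdown under temozolomide by 2.05 ± 0.507 (adjusted p = 0.00252, edgeR), and under DMSO its groups were apart without a call (0.99 ± 0.442, adjusted p = 0.0787, edgeR). The part of these markers in the results was not tested.

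Most proteasome genes stayed within a narrow band over the 4 groups. The ratio of the highest to the lowest group mean had a median of 1.08 over the 45 genes, against 1.24 over all genes tested and 1.17 over the 4636 genes with a mean of at least 50 CPM. It was under 1.1 for 28 proteasome genes (62.2%), against 12.8% of all genes and 21.0% of those at 50 CPM or more. The range was 1.03, for PSMA1 and PSMA2 of the alpha ring, to 1.60 for PSMB10, followed by 1.41 for PSMB8 and 1.3 for the assembly chaperone PSMG4. The genes were also well expressed, with a median of 116 CPM against 29.97 CPM over all genes.

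Set against each other per transcript length (FPKM, fragments scaled by transcript length and library depth), the means of the role classes kept their order in all groups. FPKM were not rescaled by TMM, and library totals alone moved the median log2 fold change of all genes to between 0.040 and 0.067 in the 4 pairwise comparisons. The 3 constitutive catalytic genes summed to 319.9 ± 13.8 FPKM in knockdown temozolomide, 308.9 ± 2.54 in control temozolomide, 311.1 ± 10.9 in knockdown DMSO and 299.6 ± 16 in control DMSO libraries (SD, n = 3 each). PSMB8, PSMB10 and PSMB11 together summed to 49.9 ± 1.51 FPKM in knockdown temozolomide, 41.0 ± 0.786 in control temozolomide, 58.5 ± 1.42 in knockdown DMSO and 45.1 ± 2.86 in control DMSO libraries (SD, n = 3 each). The immunoproteasome sums did not overlap between knockdown and control under either treatment. Most of each sum was PSMB8, with means of 41.9, 35.04, 49.05 and 38.29 FPKM in the same order of groups. PSMB10 alone overlapped under temozolomide, with 5.92 FPKM in the lowest knockdown library against 5.45 to 6.74 in control libraries. The constitutive sums did overlap between knockdown and control under both.

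The 11 other 19S subunits of the set summed to 1180 ± 15.9 FPKM in knockdown temozolomide, 1101 ± 9.56 in control temozolomide, 1082 ± 4.41 in knockdown DMSO and 1033 ± 13.3 in control DMSO libraries (SD, n = 3 each). The 6 ATPases of the 19S base summed to 673.3 ± 23.4, 639.2 ± 6.63, 636.0 ± 15.6 and 595.5 ± 21.0 FPKM in the same order of groups. The alpha ring summed to 899.7 ± 18.7, 905.9 ± 12.1, 865.1 ± 30.0 and 840.2 ± 40.7 FPKM, again in that order. On this scale, without TMM, the control DMSO mean was the lowest of the 4 in each of these classes. The TMM factors were also lowest in control DMSO libraries (0.961 to 0.966). They were 0.989 to 0.994 in knockdown DMSO, 1.008 to 1.011 in control temozolomide and 1.032 to 1.039 in knockdown temozolomide libraries. The part of this scaling in the order of the sums was not tested.

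Among the interferon-inducible genes PSMB8 separated the groups most clearly. PSMB8, at chromosome 6, 32840717 to 32844703 (GRCh38, minus strand), encodes the chymotrypsin-like subunit of the immunoproteasome. It had 50.5, 50.8 and 50.5 CPM in knockdown temozolomide, 43.1, 44.8 and 42.7 in control temozolomide, 63.4, 60.1 and 60.1 in knockdown DMSO, and 46.8, 47.9 and 53.9 in control DMSO libraries. Knockdown libraries lay above control libraries under each treatment and temozolomide libraries lay below DMSO libraries in each kind of cell, with no overlap in any of these 4 pairs. The knockdown temozolomide range fell inside that of control DMSO.

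PSMB10, at chromosome 16, 67934502 to 67937087 (minus strand), encodes the trypsin-like subunit of the immunoproteasome and was the lowest of the 45 genes per length. It had 8.44, 5.59 and 8.69 CPM in knockdown temozolomide, 6.54, 5.63 and 5.27 in control temozolomide, 8.52, 10.7 and 8.64 in knockdown DMSO, and 8.42, 5.84 and 6.40 in control DMSO libraries, from 87.8 to 173.8 counts a library. Under DMSO the lowest knockdown library stood just above the highest control library. Under temozolomide the groups overlapped through 1 knockdown library.

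PSME1, at chromosome 14, 24136158 to 24138967 (plus strand), encodes the alpha subunit of the interferon-inducible 11S activator, a ring that opens the core without ATP. It had 52.1, 49.5 and 49.3 CPM in knockdown temozolomide, 52.8, 58.8 and 53.7 in control temozolomide, 59.9, 56.4 and 54.1 in knockdown DMSO, and 47.7, 48.2 and 53.2 in control DMSO libraries. Knockdown libraries were all above control libraries under DMSO and all below them under temozolomide.

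PSME2, at chromosome 14, 24143362 to 24147570 (minus strand), encodes the beta subunit of the same ring. It had 45.6, 43.7 and 42.5 CPM in knockdown temozolomide, 39.3, 46.3 and 38.9 in control temozolomide, 56.7, 49.5 and 46.0 in knockdown DMSO, and 44.4, 42.9 and 49.8 in control DMSO libraries. Knockdown and control libraries overlapped under both treatments.

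**Figure D1:**
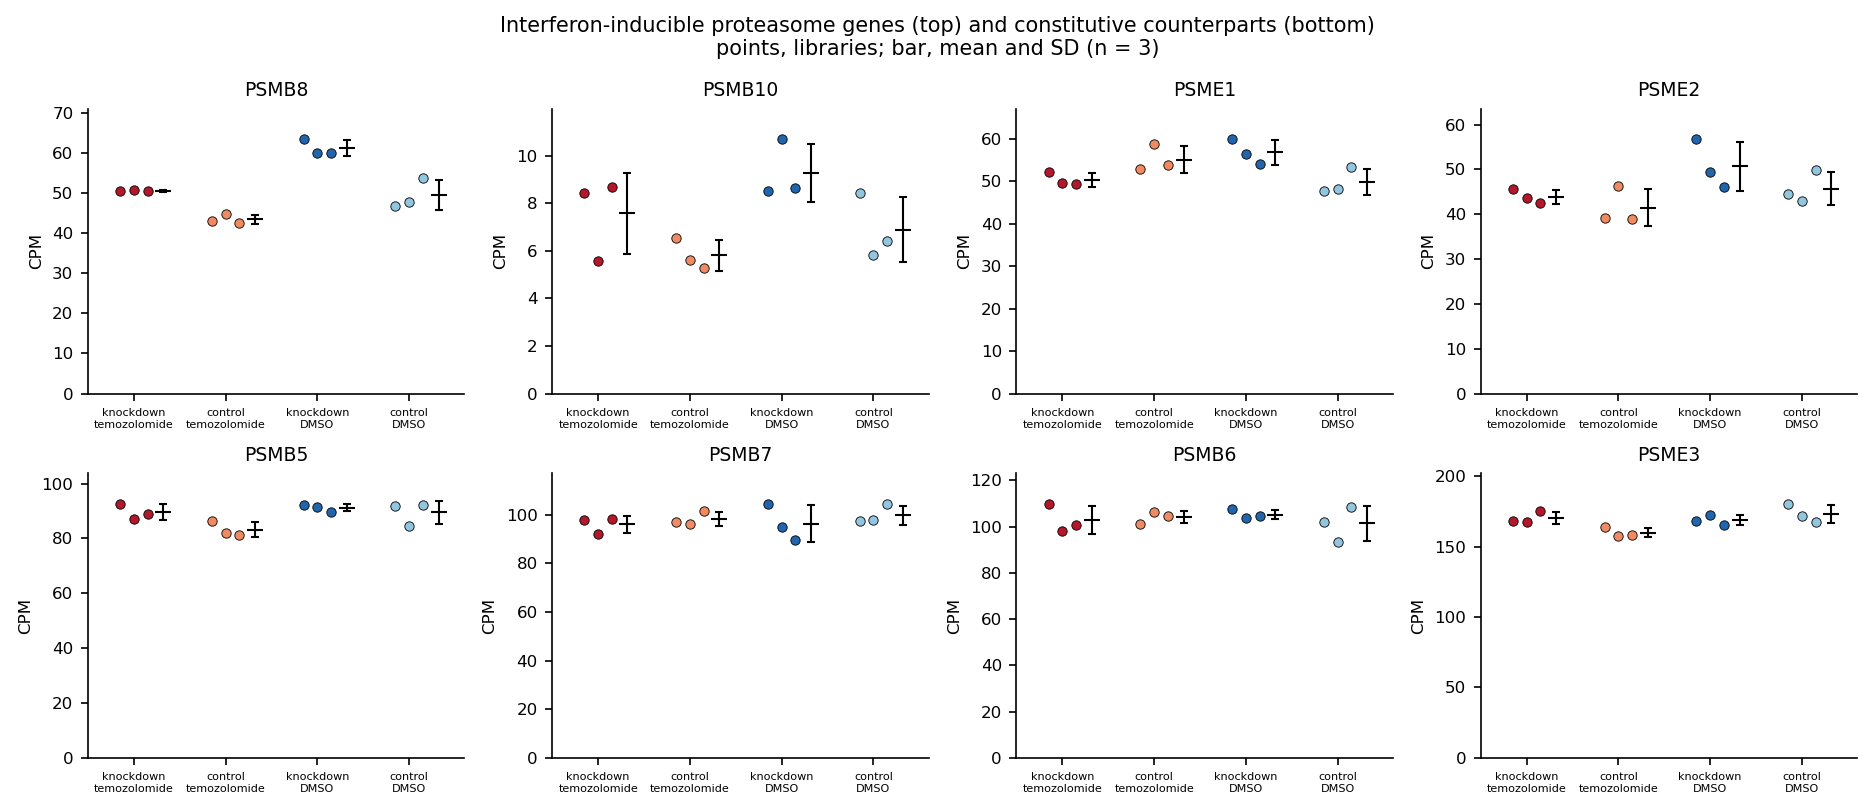
CPM (TMM-scaled, axis from 0) of the interferon-inducible genes PSMB8, PSMB10, PSME1 and PSME2 in the top row and of PSMB5, PSMB7, PSMB6 and PSME3 in the bottom row, with a point for each library and the mean and SD of 3 beside them. PSMB8 ran from 42.7 to 63.4 CPM and knockdown DMSO was its highest group, while PSMB5 stayed between 81.2 and 92.7 CPM.

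The constitutive counterparts held closer to 1 level. PSMB5, the chymotrypsin-like subunit that PSMB8 replaces, had 92.7, 87.1 and 88.9 CPM in knockdown temozolomide, 86.2, 82.0 and 81.2 in control temozolomide, 92.2, 91.5 and 89.8 in knockdown DMSO, and 91.8, 84.5 and 92.1 in control DMSO libraries. PSMB7, the trypsin-like subunit that PSMB10 replaces, had 98.0, 92.1 and 98.1 CPM in knockdown temozolomide, 96.9, 96.1 and 101.3 in control temozolomide, 104.5, 94.8 and 89.4 in knockdown DMSO, and 97.3, 97.9 and 104.3 in control DMSO libraries. PSMB5 was lower in control temozolomide than in knockdown temozolomide libraries without overlap, and the PSMB7 groups overlapped in all 4 pairs. PSMB6, the caspase-like subunit, ranged from 93.5 to 109.9 CPM over the 12 libraries.

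PSME3, which forms the nuclear counterpart of the interferon-inducible ring, had 168.2, 167.5 and 175.2 CPM in knockdown temozolomide, 163.7, 157.6 and 158.6 in control temozolomide, 168.5, 172.4 and 165.6 in knockdown DMSO, and 180.5, 171.7 and 167.3 in control DMSO libraries. The control temozolomide libraries were the lowest, below both knockdown temozolomide and control DMSO libraries.

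Within a library, PSMB8 divided by PSMB5 on the FPKM scale was 0.469 ± 0.0179 in knockdown temozolomide, 0.434 ± 0.0183 in control temozolomide, 0.562 ± 0.0111 in knockdown DMSO and 0.460 ± 0.0332 in control DMSO libraries (SD, n = 3 each). The ratio of PSMB10 to PSMB7 was 0.0789 ± 0.0156 in knockdown temozolomide, 0.0596 ± 0.00786 in control temozolomide, 0.0972 ± 0.0156 in knockdown DMSO and 0.0695 ± 0.0151 in control DMSO libraries (SD, n = 3 each). For PSMB8 to PSMB5 the knockdown DMSO libraries (0.554 to 0.574) lay above all 9 others. Under temozolomide the ranges were 0.449 to 0.485 in knockdown and 0.414 to 0.450 in control libraries and met at 1 library, and the PSMB10 ratios overlapped between all groups compared. Both immunoproteasome messengers stayed below their constitutive counterparts in every library.

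**Figure D2:**
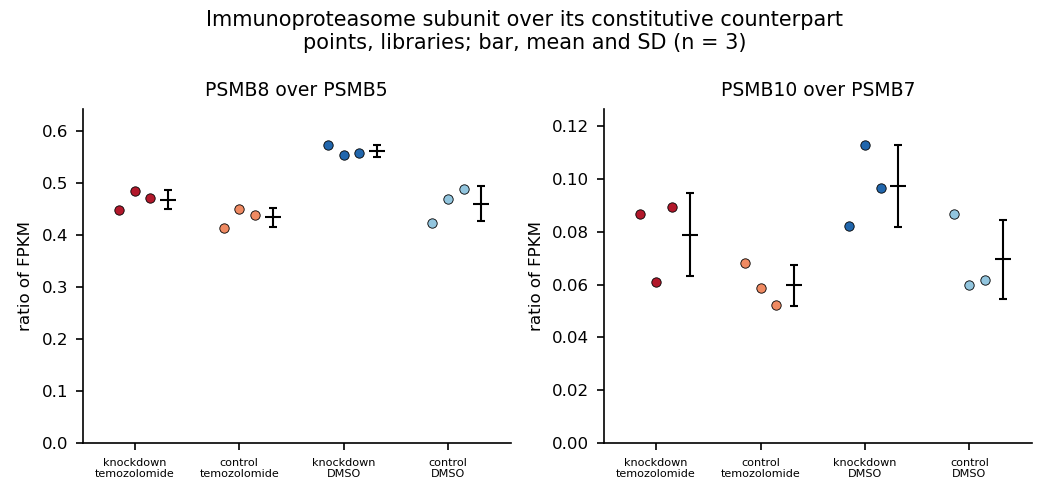
Ratio of FPKM within each library (axis from 0) for PSMB8 over PSMB5 and for PSMB10 over PSMB7, with a point per library and the mean and SD of 3. The PSMB8 ratio of the 3 knockdown DMSO libraries, 0.554 to 0.574, lay above the other 9 libraries, which ran from 0.414 to 0.488.

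CD44 knockdown under DMSO was set against the control hairpin under DMSO to ask what the loss of CD44 does without drug. Of the 45 proteasome genes, 12 were called (26.7%), 8 as rises and 4 as falls, where 42.6% of all genes tested were called (21.1% as rises and 21.4% as falls). A call is an adjusted p below 0.05 in edgeR's quasi-likelihood test. The median log2 fold change of the 45 was 0.018 and the median absolute change 0.069, against 0.17 for the absolute change over all genes. The median SE was 0.044 for the proteasome genes and 0.071 over all genes. With library totals alone in place of TMM scaling the split was 13 rises and 1 fall.

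Of the 4 interferon-inducible genes 3 rose and the fourth, PSME2, was not called. PSMB8 rose by 0.30 ± 0.052 (log2 fold change ± SE, adjusted p = 7.47e-05, edgeR), a 1.23-fold difference. This call held in every one of the 17 alternative fits of the comparison, which is what "every alternative" means for the calls that follow. PSMB10 rose by 0.43 ± 0.164 (adjusted p = 0.0396, edgeR), and PSME1 by 0.19 ± 0.057 (adjusted p = 0.0114, edgeR). PSME2 differed by 0.14 with a 95% interval of -0.017 to 0.301 (adjusted p = 0.143, edgeR). The call of PSMB10 ended without control DMSO library 2, control DMSO library 3 or knockdown DMSO library 2, with DESeq2 and on unfiltered FPKM, where adjusted p reached 0.174 over the alternatives. That of PSME1 ended without control DMSO library 1 or knockdown DMSO library 1, with adjusted p up to 0.0655.

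None of the 3 constitutive catalytic genes was called by edgeR, nor by any alternative. The 95% intervals of their log2 fold changes were -0.065 to 0.116 for PSMB5, -0.054 to 0.156 for PSMB6 and -0.163 to 0.047 for PSMB7. In the alpha ring 1 gene rose and 1 fell of 7, and in the beta ring's structural subunits none of 4 was called. PSMA4 had 237.0, 220.1 and 231.1 CPM in knockdown DMSO libraries, against 197.7, 204.2 and 203.2 in control DMSO libraries, which did not overlap. It rose by 0.19 ± 0.039 (adjusted p = 0.000532, edgeR) and kept this call in every alternative. PSMA7 had 222.8, 216.9 and 206.5 CPM in knockdown DMSO libraries, against 252.9, 213.6 and 256.0 in control DMSO libraries. These overlap, since 1 control library was low, and the fall of PSMA7 (-0.16 ± 0.052, adjusted p = 0.0150, edgeR) was not called without control DMSO library 1, control DMSO library 3 or knockdown DMSO library 3, with a GC correction, with library totals alone or on FPKM.

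The 6 ATPases of the 19S particle held 1 rise and its 11 other subunits in the set 3 rises and 1 fall, all 4 of them lid subunits. PSMD11, a lid subunit at chromosome 17, 32444261 to 32483318 (plus strand) that takes part in joining the lid to the core, had 205.4, 216.3 and 213.4 CPM in knockdown DMSO libraries, against 187.3, 188.4 and 184.4 in control DMSO libraries. PSMD12, another lid subunit, had 206.2, 197.3 and 211.7 CPM in knockdown DMSO libraries, against 180.9, 184.6 and 170.2 in control DMSO libraries. Neither gene's groups overlapped. PSMD11 rose by 0.18 ± 0.033 (adjusted p = 0.000122, edgeR) and PSMD12 by 0.20 ± 0.038 (adjusted p = 0.00022, edgeR), and both calls held in every alternative.

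PSMD14, the deubiquitinase of the lid, rose by 0.14 ± 0.038 (adjusted p = 0.00461, edgeR). A GC correction removed its direction and gave -0.005 (adjusted p = 0.936, edgeR). The ATPase PSMC2 rose by 0.11 ± 0.036 (adjusted p = 0.0147, edgeR) and lost its call under the same correction and without knockdown DMSO library 1 or 3. Genes of at least 60% GC stood 0.068 to 0.217 above genes of at most 40% GC in control DMSO libraries on a centred log2 scale, against -0.084 to -0.025 in knockdown DMSO libraries.

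The falls were spread over the roles. PSMD10 (gankyrin), a chaperone of the 19S base on chromosome X, 108084207 to 108091618 (minus strand), had 50.5, 49.4 and 48.3 CPM in knockdown DMSO libraries, against 54.7, 56.3 and 54.5 in control DMSO libraries. PSMD13, a lid subunit, had 88.5, 88.0 and 92.4 CPM in knockdown DMSO libraries, against 97.3, 99.6 and 97.9 in control DMSO libraries. Both were lower in every knockdown library. PSMD10 fell by 0.16 ± 0.045 (adjusted p = 0.00629, edgeR) in every alternative, while the fall of PSMD13 (-0.13 ± 0.038, adjusted p = 0.00793, edgeR) lost its call with library totals alone and on FPKM. PSMF1, named for its inhibition of the core, fell by 0.14 ± 0.045 (adjusted p = 0.0174, edgeR), with overlapping groups. Its call ended with library totals alone, on FPKM, and without control DMSO library 1 or knockdown DMSO library 1 or 3.

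CD44 knockdown under temozolomide was set against the control hairpin under temozolomide, which shares no library with the comparison under DMSO. Both comparisons rest on the same hairpin labels and a shared fit, so they are not independent evidence of an effect of CD44. Here 10 of 45 proteasome genes were called (22.2%), 7 as rises and 3 as falls, against 42.3% of all genes (22.0% as rises and 20.3% as falls). The median absolute log2 change was 0.078 for proteasome genes and 0.165 over all genes. The split depended on the scaling, with 16 rises and 1 fall on library totals alone and 5 rises and 5 falls with relative log expression factors.

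PSMB8 rose again, by 0.22 ± 0.053 (adjusted p = 0.00196, edgeR), and was called in every alternative. The other interferon-inducible genes were not called. PSMB10 differed by 0.35 with a 95% interval of -0.002 to 0.697 (adjusted p = 0.103, edgeR), and was called without knockdown temozolomide library 2. PSME1 differed by -0.13 (95% interval -0.244 to -0.012, adjusted p = 0.071, edgeR) and was called as a fall with a GC correction, with no low-count filter and without control temozolomide library 1. PSME2 differed by 0.09 (95% interval -0.070 to 0.249). PSMB5 had a 95% interval of 0.014 to 0.193 (adjusted p = 0.0579, edgeR). It was called as a rise on library totals alone, on FPKM, in the fit blocked by replicate number, and when control temozolomide library 1 was left out. PSMB6 and PSMB7 were not called, with intervals of -0.119 to 0.088 and -0.135 to 0.072.

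The 19S genes held 4 of the 7 rises, PSMD1, PSMD3, PSMD11 and PSMC2. PSMD11 had 212.4, 214.8 and 216.3 CPM in knockdown temozolomide libraries, against 186.9, 183.5 and 187.6 in control temozolomide libraries. PSMD3, a lid subunit at chromosome 17, 39980797 to 39997960 (plus strand), had 254.5, 250.2 and 255.7 CPM in knockdown temozolomide libraries, against 229.3, 214.7 and 212.4 in control temozolomide libraries. The groups of both genes were apart. PSMD11 rose by 0.21 ± 0.032 (adjusted p = 2.76e-05, edgeR) and PSMD3 by 0.21 ± 0.037 (adjusted p = 0.000101, edgeR), both in every alternative.

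The smaller rises were less steady. PSMD1, the large scaffold of the base, rose by 0.10 ± 0.032 (adjusted p = 0.0119, edgeR), but not without knockdown temozolomide library 2 or with no low-count filter. PSME4, the large single-chain activator, rose by 0.11 ± 0.037 (adjusted p = 0.0181, edgeR), with overlapping groups. Its call ended without control temozolomide library 3 or knockdown temozolomide library 2 or 3. PSMB2 and PSMC2 rose by 0.10 and 0.09 (adjusted p = 0.0335 and 0.0416, edgeR) and lost their calls under 8 and 11 of 17 alternatives. Among these were leaving out any library but control temozolomide 1 for PSMB2, and control temozolomide 1 or 2 or knockdown temozolomide 2 or 3 for PSMC2.

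All 3 falls were assembly chaperones. PSMD10 had 49.9, 49.2 and 51.1 CPM in knockdown temozolomide libraries, against 60.3, 60.7 and 58.1 in control temozolomide libraries. PSMG1, which pairs with PSMG2 to build the alpha ring, had 54.5, 55.4 and 55.0 CPM in knockdown temozolomide libraries, against 60.5, 58.4 and 59.4 in control temozolomide libraries. PSMG4, which pairs with PSMG3, had 9.58, 9.99 and 9.69 CPM in knockdown temozolomide libraries, against 10.58, 12.52 and 12 in control temozolomide libraries. None of the 3 pairs of groups overlapped. PSMD10 fell by 0.26 ± 0.043 (adjusted p = 6.14e-05, edgeR), the largest fall called under temozolomide and kept in every alternative.

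PSMG1 fell by 0.11 ± 0.043 (adjusted p = 0.0390, edgeR) and PSMG4 by 0.25 ± 0.099 (adjusted p = 0.0456, edgeR). Their calls ended under 10 and 12 of 17 alternatives, PSMG1's without any 1 library but control temozolomide 2 and PSMG4's without any 1 library but control temozolomide 1, with adjusted p up to 0.161 and 0.158. The other chaperones of the set, PSMG2, PSMG3, PSMD5 and PSMD9, were not called.

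Between the DMSO and temozolomide comparisons 4 proteasome genes were called in both and in the same direction. These were PSMB8, PSMC2 and PSMD11, higher in knockdown, and PSMD10, lower in knockdown, and none was called in opposite directions. They are 4 of the 12 calls under DMSO and 4 of the 10 under temozolomide. Over all genes 3726 were called in both with the same direction, of 5458 under DMSO and 5426 under temozolomide.

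**Figure D3:**
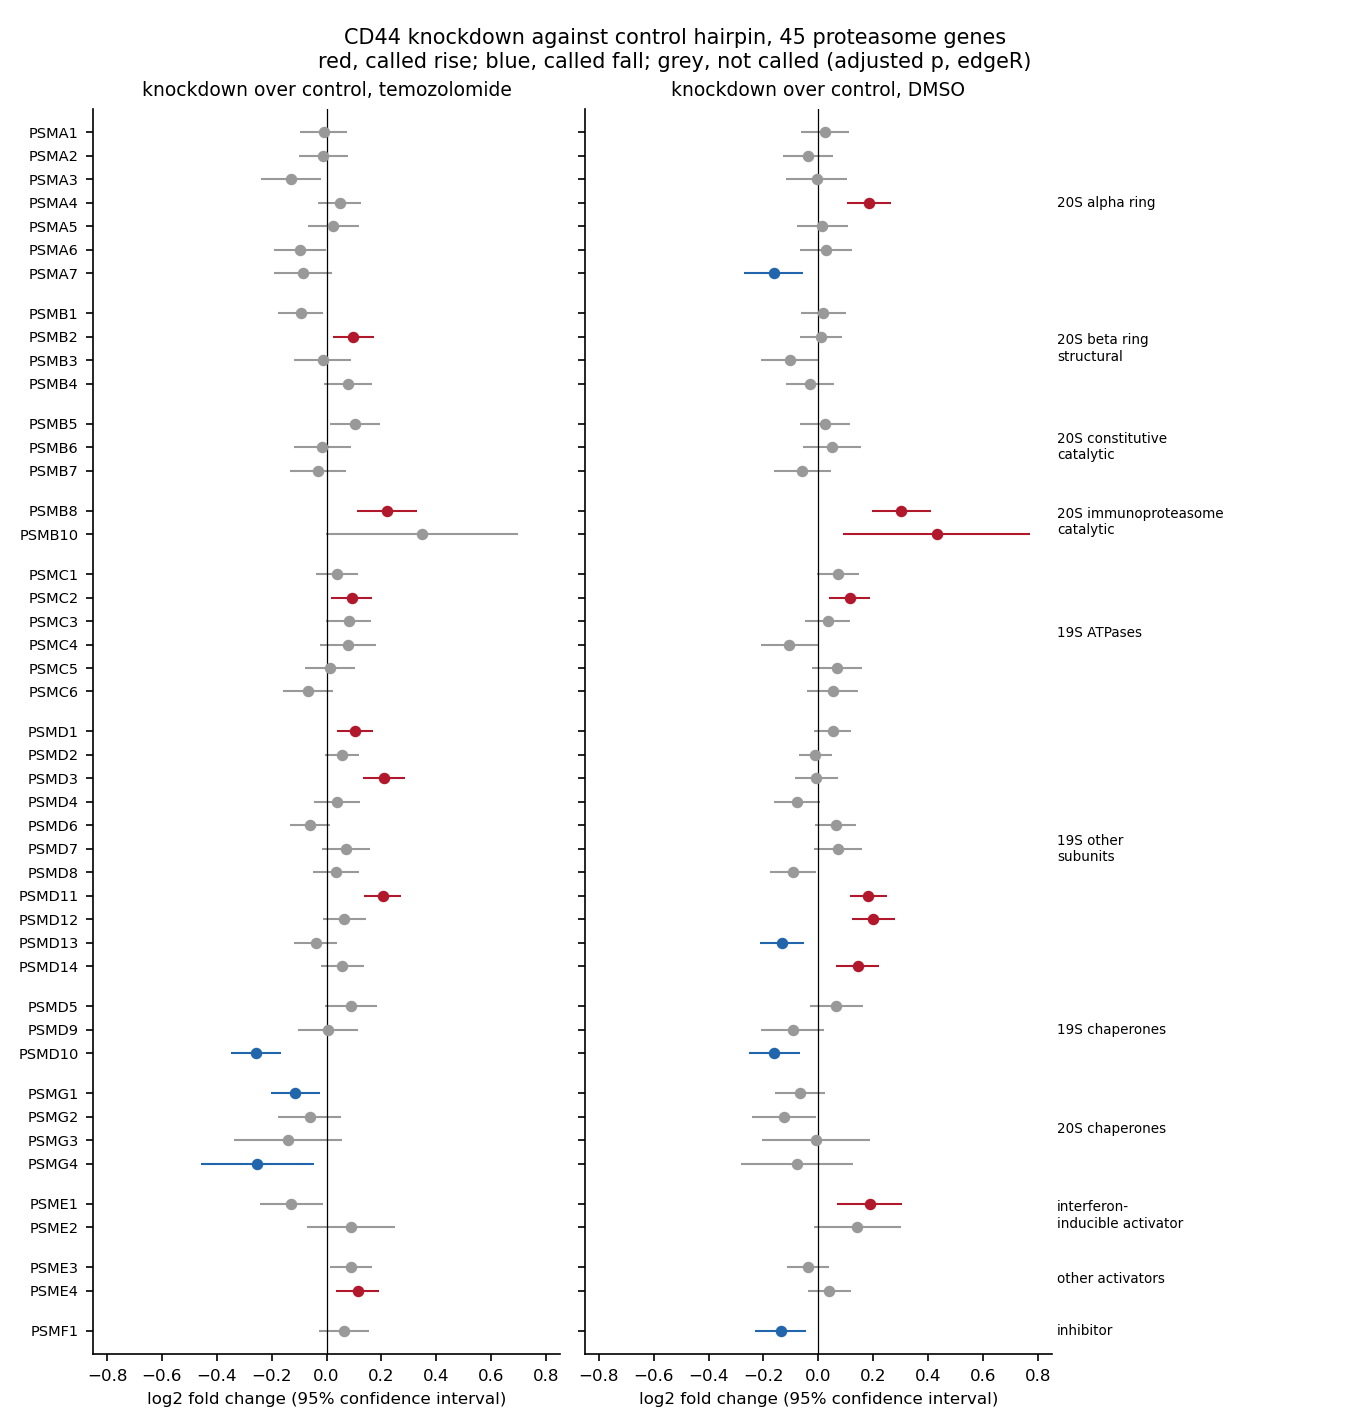
Log2 fold change of knockdown over control with its 95% confidence interval for the 45 tested genes, grouped by role, under temozolomide on the left and DMSO on the right. Calls are coloured, red for rises and blue for falls. PSMB8 (0.22 and 0.30), PSMD11 (0.21 and 0.18) and PSMD10 (-0.26 and -0.16) were called in both panels, and most of the other points lay near 0.

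Temozolomide was set against DMSO in control cells and in knockdown cells to describe the response to the drug. Each of these comparisons shares a group of libraries with each of the knockdown comparisons, so their values are given side by side and not as independent evidence. In knockdown cells 5 of 45 proteasome genes were called (11.1%), 2 as rises and 3 as falls, against 22.3% of all genes (9.05% as rises and 13.2% as falls). In control cells 7 of 45 were called (15.6%), 5 as rises and 2 as falls, against 27.5% of all genes (11.7% as rises and 15.8% as falls). On library totals alone the splits were 12 rises and 1 fall in knockdown cells, and 12 rises and 0 falls in control cells, with all genes also turning to 2533 rises and 1078 falls in knockdown cells and 2870 rises and 1295 falls in control cells.

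PSMB8 fell with temozolomide in both kinds of cell. In knockdown cells it fell by 0.27 ± 0.051 (adjusted p = 0.00058, edgeR) in every alternative. In control cells it fell by 0.19 ± 0.053 (adjusted p = 0.0105, edgeR), and the call ended on library totals alone, on FPKM, with a GC correction and without control DMSO library 3, with adjusted p up to 0.123. PSME1 fell in knockdown cells by 0.17 ± 0.056 (adjusted p = 0.0321, edgeR), with no overlap. That call ended on library totals alone, on FPKM, and without knockdown DMSO library 1 or 2 or knockdown temozolomide library 2 or 3. In control cells PSME1 differed by 0.14 (95% interval 0.025 to 0.259, adjusted p = 0.0657, edgeR). It was called as a rise there on library totals alone, on FPKM, with no low-count filter, with a GC correction, and without control DMSO library 3 or control temozolomide library 1.

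PSMB10 and PSME2 were not called in either kind of cell. Their 95% intervals were -0.650 to 0.021 for PSMB10 and -0.358 to -0.042 for PSME2 in knockdown cells, and -0.587 to 0.126 for PSMB10 and -0.308 to 0.012 for PSME2 in control cells. PSMB5, PSMB6 and PSMB7 were not called either. PSMB5 lay between -0.116 and 0.064 in knockdown cells and between -0.194 and -0.014 in control cells (adjusted p = 0.722 and 0.0788, edgeR). In control cells PSMB5 was called as a fall without control DMSO library 2 or control temozolomide library 1. PSME3 fell in control cells by 0.11 ± 0.037 (adjusted p = 0.0262, edgeR). Its call ended on library totals alone, on FPKM, and without control DMSO library 1 or control temozolomide library 2 or 3.

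The rises were in the regulatory particle and the alpha ring. PSMD2, the ubiquitin-receptor scaffold of the 19S base and the most counted gene of the set, had 604.7, 606.9 and 589.8 CPM in knockdown temozolomide libraries, against 534.4, 549.9 and 535.0 in knockdown DMSO libraries. In control cells it had 575.5, 589.5 and 567.9 CPM in temozolomide libraries, against 545.5, 545.8 and 540.6 in DMSO libraries. Temozolomide libraries were higher without overlap in both kinds of cell. PSMD2 rose by 0.15 ± 0.029 in knockdown cells (adjusted p = 0.000635, edgeR), in every alternative, and by 0.09 ± 0.029 in control cells (adjusted p = 0.0315, edgeR). The call in control cells ended with only the groups compared in the fit and without control DMSO library 1 or 3 or control temozolomide library 1 or 2.

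PSMD3 rose in knockdown cells by 0.15 ± 0.037 (adjusted p = 0.00474, edgeR), in every alternative, with 254.5, 250.2 and 255.7 CPM in temozolomide libraries, against 230.7, 229.9 and 222.5 in DMSO libraries. In control cells PSMD3 was not called, with 229.3, 214.7 and 212.4 CPM in temozolomide libraries, against 235.1, 218.7 and 232.3 in DMSO libraries. The groups were apart in knockdown cells and overlapped in control cells.

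In control cells 4 further genes rose. PSMA4 had 222.1, 224.5 and 224.0 CPM in control temozolomide libraries, against 197.7, 204.2 and 203.2 in control DMSO libraries. PSMD6, a lid subunit, had 129.7, 131.6 and 128.7 CPM in control temozolomide libraries, against 118.6, 115.9 and 118.9 in control DMSO libraries. PSMC2 had 143.3, 143.3 and 148.1 CPM in control temozolomide libraries, against 133.8, 133.4 and 134.2 in control DMSO libraries. All 3 were higher in every temozolomide library.

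PSMA4 rose by 0.15 ± 0.038 (adjusted p = 0.00629, edgeR) in every alternative. PSMD6 rose by 0.14 ± 0.035 (adjusted p = 0.00452, edgeR), PSMC2 by 0.11 ± 0.036 (adjusted p = 0.0208, edgeR) and PSMD12 by 0.12 ± 0.038 (adjusted p = 0.0252, edgeR). With a GC correction these 3 gave 0.05, 0.02 and 0.01 (adjusted p = 0.418, 0.654 and 0.797, edgeR). PSMC2 was also not called without control DMSO library 1 or control temozolomide library 3, and PSMD12 without control DMSO library 3 or control temozolomide library 2 or 3. The GC gap was -0.134 to 0.04 in control temozolomide libraries, against 0.068 to 0.217 in control DMSO libraries, and its part in these calls was not tested beyond that correction.

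The chaperone PSMG4 was the third fall in knockdown cells, with 9.58, 9.99 and 9.69 CPM in temozolomide libraries, against 11.9, 11.9 and 12.3 in DMSO libraries. It fell by 0.30 ± 0.1 (adjusted p = 0.0347, edgeR) without overlap. The call ended under 11 of 17 alternatives, leaving out any 1 of the 6 libraries among them, with adjusted p up to 0.154. In control cells PSMG4 differed by -0.13 (95% interval -0.329 to 0.074, adjusted p = 0.358, edgeR).

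**Figure D4:**
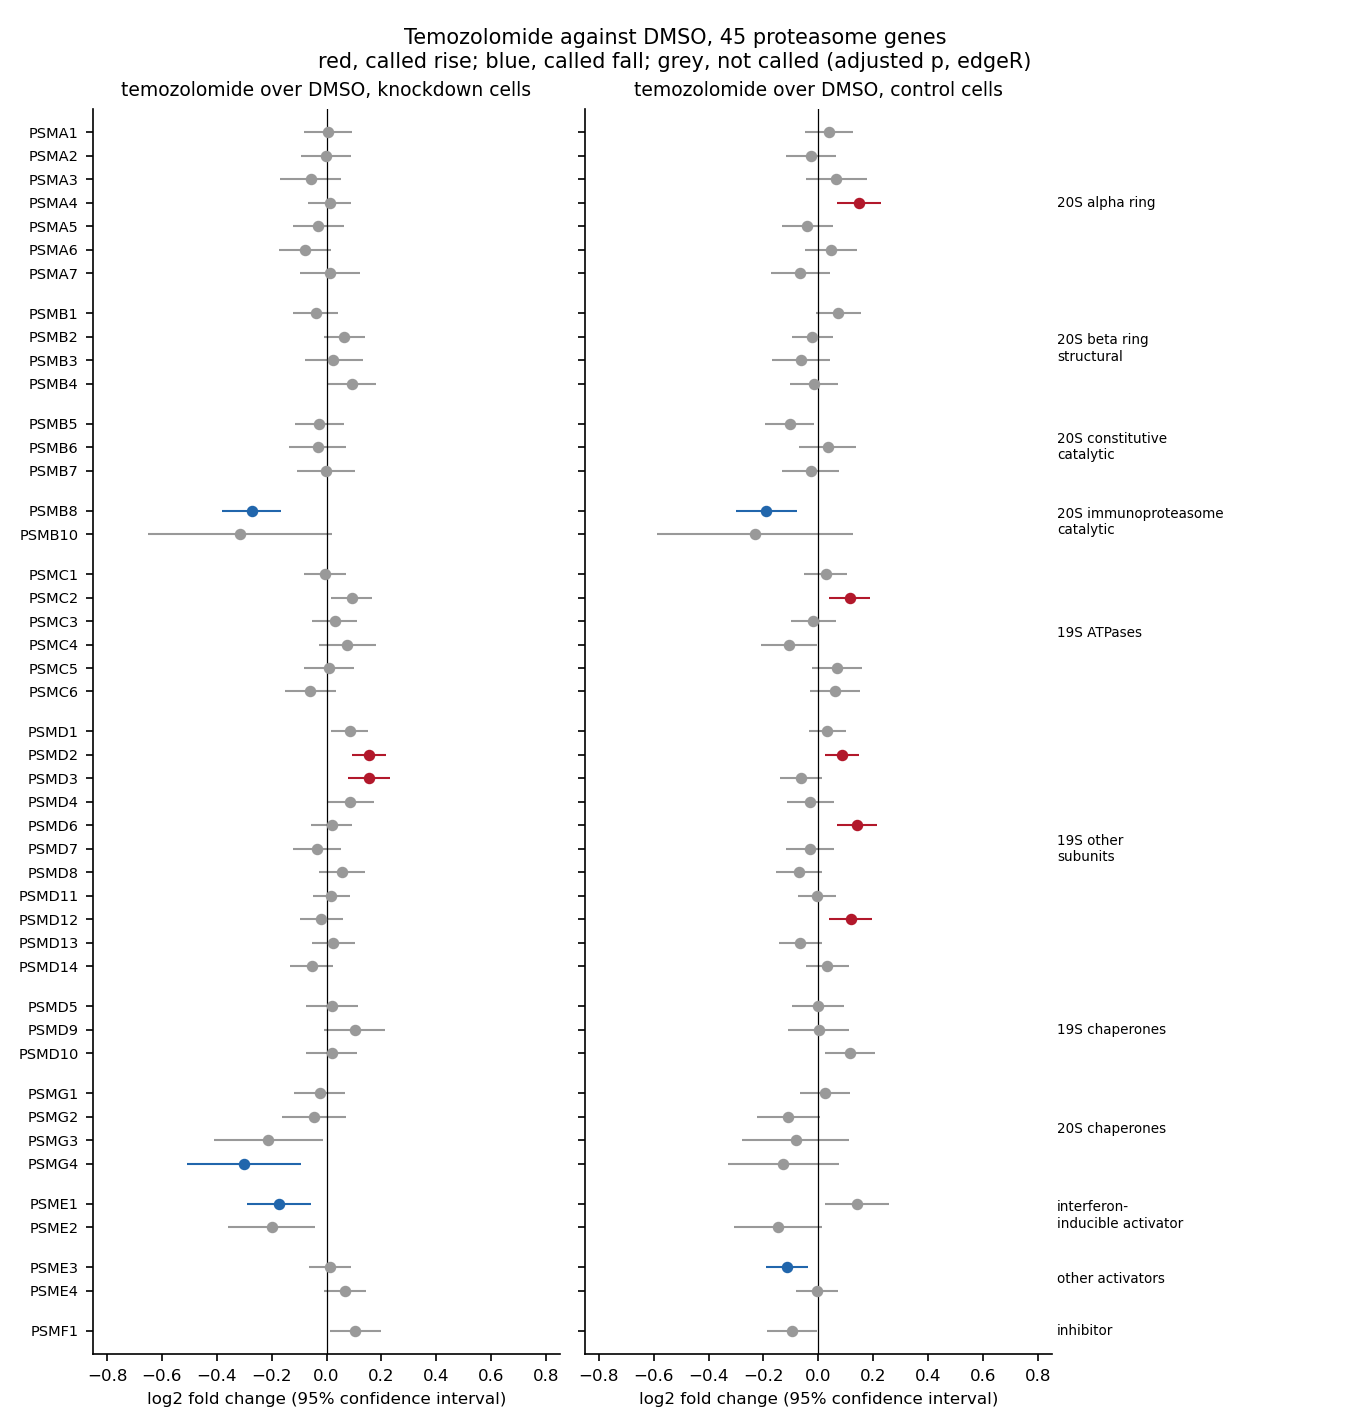
Log2 fold change of temozolomide over DMSO with its 95% confidence interval for the 45 tested genes, grouped by role, in knockdown cells on the left and control cells on the right. Calls are coloured, red for rises and blue for falls. PSMB8 (-0.27 and -0.19) and PSMD2 (0.15 and 0.09) were called in both panels.

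The difference between the temozolomide responses of knockdown and control cells, an interaction term over all 4 groups, asked whether the drug acts differently once CD44 is lowered. It was called for 1 of 45 proteasome genes (2.22%), against 1.05% of all genes (0.437% as rises and 0.616% as falls). That gene was PSMD3, with a difference of 0.22 ± 0.053 on the log2 scale (adjusted p = 0.0491, edgeR). The call ended under 14 of 22 alternatives, with adjusted p up to 0.193, among them a GC correction, relative log expression factors, FPKM, and leaving out any library but control DMSO 2, control temozolomide 1 or knockdown temozolomide 3. No proteasome gene was called as negative by edgeR, where 4 had an unadjusted p under 0.05. DESeq2 called 1 and limma on FPKM called 0.

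PSME1 had the larger size, -0.31 ± 0.079 (adjusted p = 0.0530, edgeR). It was called under 6 alternatives, which were relative log expression factors, no low-count filter, a GC correction, DESeq2, and leaving out control DMSO library 3 or control temozolomide library 1. The differences of PSMB8 (95% interval -0.237 to 0.071), PSMB10 (-0.573 to 0.406) and PSME2 (-0.277 to 0.172) were not called.

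**Figure D5:**
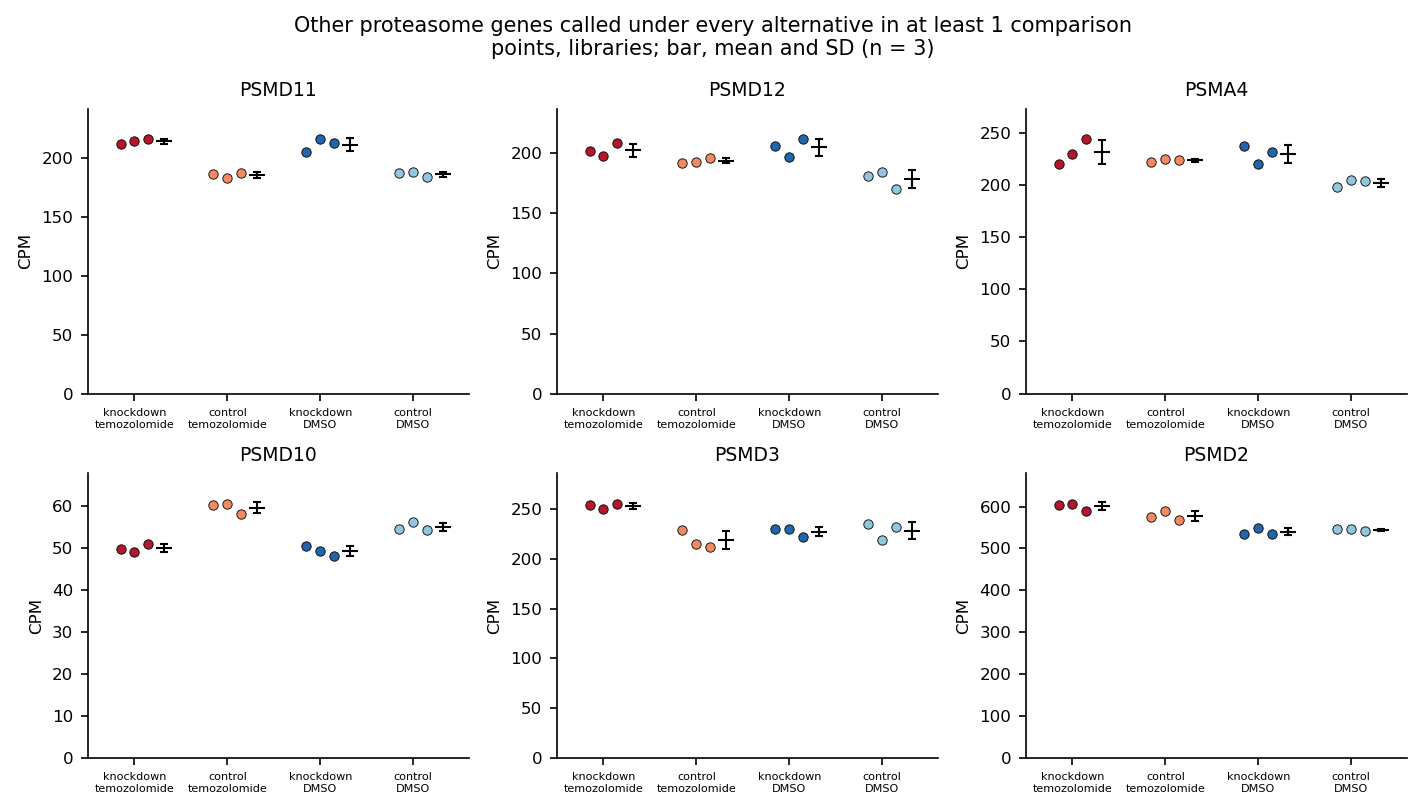
CPM (TMM-scaled, axis from 0) of PSMD11, PSMD12, PSMA4, PSMD10, PSMD3 and PSMD2, with a point for each library and the mean and SD of 3 beside them. PSMD11 was at 205.4 to 216.3 CPM in the 6 knockdown libraries, against 183.5 to 188.4 in the 6 control libraries. PSMD10 was at 48.3 to 51.1 CPM in the 6 knockdown libraries, against 54.5 to 60.7 in the 6 control libraries.

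Other genes of the system were read from lists of interferon regulators, associated proteins, proteasome gene regulators and ubiquitin genes. These lists were drawn up with results of these data known. The 5 interferon regulators described here were IRF1, IRF2, IRF9, STAT2 and NLRC5. With the knockdown 3 of them rose under temozolomide and 4 under DMSO, and none fell. Over all genes, 22.0% rose under temozolomide and 21.1% under DMSO. STAT2 rose by 0.175 ± 0.05 under DMSO (adjusted p = 0.0076, edgeR) and was not called under temozolomide (-0.069). IRF2 was called under neither treatment (adjusted p = 0.353 under temozolomide and 0.187 under DMSO, edgeR). The regulators were picked with these results known, so their count is a description. IRF9, part of the complex that binds the response element, had 28.3, 14.4 and 21.5 CPM in knockdown temozolomide, 11.2, 10.8 and 9.60 in control temozolomide, 28.8, 34.6 and 32.8 in knockdown DMSO, and 12.96, 14.73 and 10.81 in control DMSO libraries. Knockdown libraries were above control libraries under each treatment, and the 3 knockdown temozolomide libraries were the most spread. IRF9 rose by 0.995 ± 0.168 under temozolomide and 1.33 ± 0.162 under DMSO (adjusted p = 6.22e-05 and 1.05e-06, edgeR).

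IRF1, which binds the same element, rose by 0.97 ± 0.107 and 0.76 ± 0.109, and NLRC5, the transactivator of MHC class I genes, by 0.38 ± 0.049 and 0.24 ± 0.048, under temozolomide and DMSO in that order. With temozolomide, IRF9, STAT2 and NLRC5 fell in knockdown cells by 0.60, 0.20 and 0.17, and NLRC5 fell in control cells by 0.31. The rises of IRF9 and IRF1 were larger than any called rise of the 4 interferon-inducible proteasome genes, the largest of which was 0.43 for PSMB10 under DMSO.

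Of 16 proteasome-associated proteins, the 19S subunits ADRM1 and SEM1 among them, 9 rose and 3 fell with the knockdown under temozolomide. Under DMSO 8 rose and 1 fell. Over all genes tested, 22.0% rose and 20.3% fell under temozolomide, and 21.1% rose and 21.4% fell under DMSO. USP14, a deubiquitinase bound to the 19S base, had 214.6, 218.1 and 223.2 CPM in knockdown temozolomide libraries, against 194.5, 201.1 and 196.7 in control temozolomide libraries. Under DMSO it had 222.3, 227.6 and 228.1 CPM in knockdown libraries, against 197.0, 194.0 and 196.6 in control libraries. It rose by 0.15 ± 0.032 and 0.21 ± 0.032 under temozolomide and DMSO (adjusted p = 0.000813 and 2.44e-05, edgeR). AKIRIN2, which brings proteasomes into the nucleus, rose by 0.28 and 0.24, and the scaffold ECPAS by 0.16 and 0.14.

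The ubiquitin receptor ADRM1 rose under temozolomide by 0.30 ± 0.048 (adjusted p = 3.7e-05, edgeR), while the small lid subunit SEM1 fell there by 0.40 ± 0.078 (adjusted p = 0.00029, edgeR). Neither was called under DMSO. Of the ubiquitin genes, RPS27A, which encodes ubiquitin fused to a ribosomal protein, fell by 0.33 under temozolomide and by 0.28 under DMSO, where its groups overlapped. NFE2L1, the factor that raises proteasome genes when proteasomes are blocked, was not called in any comparison (adjusted p = 0.838 and 0.58 for knockdown under temozolomide and DMSO, edgeR). NFE2L2, the antioxidant response factor, fell by 0.14 ± 0.036 and 0.22 ± 0.037 under temozolomide and DMSO (adjusted p = 0.00327 and 6.48e-05, edgeR).

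The counts of several genes may hold reads of others. In the reference annotation 22 of the 47 genes share exon bases with another gene, such as PSMB8 with the antisense gene PSMB8-AS1, PSME1 with EMC9, PSME2 with RNF31 and PSMB10 with AC040162.1. Strand use in counting is not stated, so reads of such partners cannot be told apart. By name 12 genes have annotated pseudogenes, PSMD10 and PSME2 among them, and 8 had fractional counts in at least 1 library.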

How the data were processed

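RNA enriched with oligo(dT) was sequenced in 12 libraries, 3 in each of 4 groups. The authors deposited estimated counts per gene (10.7 to 12% of a library's values are not whole, so values were rounded before testing) and FPKM. Per the submitters' processing notes the tools were RSEM, StringTie 1.3.1, HISAT2, Bowtie2 2.2.8 and fastp 0.18.0, with no role given. The genome build is not given in the sources used here, so locations come from the GRCh38 reference by gene identifier.

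Counts were fitted over all 4 groups with edgeR 4.0.16 in R 4.3.3, using filterByExpr, TMM factors (0.961 to 1.04), the quasi-likelihood test and Benjamini-Hochberg adjustment over 12821 genes. FPKM were used for ratios, class sums and comparisons between genes. The alternatives used limma 3.58.1 and DESeq2 1.42.0, other scalings and filters, a GC spline, a replicate block, and each library left out. Scripts were tested on simulated data.

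Members and lists were chosen with earlier results of these data known. Values per library are given for the immunoproteasome and activator genes, their counterparts, the 3 called genes of smallest p per direction in each comparison, and called genes that go against most of their role class. The called regulators and the partners of smallest p are named besides. Some genes of the lists are not reported here.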

Additional observations from a re-analysis of the deposited data

Results flagged for a closer look

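PSMD3, a lid subunit of the 19S particle, stood out because its response to temozolomide differed between knockdown and control cells in a direct test. The difference was 0.217 on the log2 scale (adjusted p = 0.0491, edgeR). In knockdown cells all 3 temozolomide libraries were above all 3 DMSO libraries, while in control cells the groups overlapped. The difference ran from 0.175 to 0.254 over 22 alternatives, and its call ended in 14 of them, which were relative log expression factors, the GC correction, the 3 fits on FPKM and 9 of the 12 fits with 1 library left out.

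PSME1 stood out because its knockdown and control libraries were apart in opposite directions under the 2 treatments. Its log2 fold change of knockdown over control was -0.128 under temozolomide, with all 3 knockdown libraries lower, and 0.187 under DMSO, with all 3 higher. The nearest knockdown and control libraries were close, at 52.09 and 52.76 CPM under temozolomide and 54.09 and 53.22 CPM under DMSO. Of the 45 genes scanned, knockdown libraries were apart above control for 13 and below for 7 under temozolomide, and for 13 and 4 under DMSO. Neither the share of all genes with groups apart nor the share with opposite directions was counted. These counts therefore have no background to be read against. The test of that difference gave -0.31 (adjusted p = 0.0530, edgeR), which misses the threshold.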

How the results depend on the processing

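Of 35 called changes of proteasome genes, 13 kept their call and direction in each of 17 alternatives. These were PSMB8 in both knockdown comparisons and for temozolomide in knockdown cells, PSMD10 and PSMD11 in both knockdown comparisons, PSMA4 and PSMD12 for knockdown under DMSO, PSMA4 for temozolomide in control cells, PSMD3 for knockdown under temozolomide and for temozolomide in knockdown cells, and PSMD2 for temozolomide in knockdown cells. PSMD14 reversed with the GC correction, to -0.005 for knockdown under DMSO and -0.148 for temozolomide in control cells (adjusted p = 0.936 and 0.0111, edgeR). Counts that follow are of proteasome genes unless said otherwise. With library totals alone they were 16 and 1 for knockdown under temozolomide, 13 and 1 for knockdown under DMSO, 12 and 1 for temozolomide in knockdown cells, and 12 and 0 for temozolomide in control cells. For all genes this scaling gave 2533 rises and 1078 falls for temozolomide in knockdown cells and 2870 and 1295 in control cells. Relative log expression factors gave 5 falls for knockdown under temozolomide, and 0 rises and 1 fall for the difference of responses. With no low-count filter there were 4 rises and 6 falls for knockdown under temozolomide, and 1 fall for the difference, where all genes held 187 rises and 359 falls. The GC correction gave 4 rises for temozolomide in knockdown cells, 3 in control cells, and 0 rises and 1 fall for the difference, where all genes held 11 rises and 24 falls. DESeq2 gave 1 fall for the difference, 130 rises and 243 falls of all genes there, and 687 rises of all genes for temozolomide in knockdown cells. With limma on log2(FPKM + 1), log2(FPKM + 0.1) and unfiltered log2(FPKM + 1) alike, proteasome genes had 11 rises and 1 fall for knockdown under temozolomide, 1 fall under DMSO, 9 rises and 1 fall for temozolomide in knockdown cells, 10 and 0 in control cells, and 0 rises for the difference. In that order of the 3 FPKM settings, falls of all genes were 1683, 1680 and 1560 for knockdown under temozolomide, 1733, 1732 and 1621 under DMSO, 692, 679 and 664 for temozolomide in knockdown cells, and 929, 929 and 835 in control cells. The difference gave 0 rises and 0 falls of all genes by limma in each, where 873, 868 and 1022 rises and 823, 825 and 960 falls had an unadjusted p under 0.05. At adjusted p below 0.01, proteasome genes had 3 rises and 1 fall for knockdown under temozolomide, 5 and 2 under DMSO, 1 fall for temozolomide in knockdown cells, 2 and 0 in control cells, and 0 rises for the difference. For all genes that threshold gave 504 rises and 1074 falls for temozolomide in knockdown cells, 812 rises in control cells, and 4 rises and 9 falls for the difference. Leaving out each library in turn gave 4 to 7 rises and 1 to 4 falls for knockdown under temozolomide, with 4 rises without knockdown temozolomide library 2 or 3, and 1 fall without control temozolomide library 3 or knockdown temozolomide library 1 or 2. Under DMSO it gave 2 to 6 falls, with 2 without control DMSO library 1 or knockdown DMSO library 3. For temozolomide in knockdown cells it gave 1 to 3 falls, with 1 without knockdown DMSO library 1 or 2 or knockdown temozolomide library 2 or 3. In control cells it gave 3 to 6 rises, with 3 without control DMSO library 1 or control temozolomide library 2 or 3, and 1 to 4 falls, with 4 without control DMSO library 2 and 1 without control DMSO library 1 or 3 or control temozolomide library 3. The difference gave 0 to 1 rises, with the rise kept without control DMSO library 2, control temozolomide library 1 or knockdown temozolomide library 3, and 0 to 1 falls, with 1 without control DMSO library 3 or control temozolomide library 1. For all genes the difference gave 5 to 210 rises and 13 to 212 falls. Rises of all genes for temozolomide in knockdown cells were 733 to 952, the lowest without knockdown DMSO library 2. With the replicate number as a block, the difference had 103 rises and 119 falls of all genes, and PSMB5 for knockdown under temozolomide (0.11, adjusted p = 0.0362, edgeR) and PSMC4 for knockdown under DMSO and for temozolomide in control cells (-0.105 and -0.11, adjusted p = 0.0409 and 0.0443, edgeR) gained a call, while the block changed no other call of a proteasome gene. Over 18 same-numbered pairs the correlation of deviations was -0.077 to 0.14, and 6 of 12 libraries were closest to their own number. No strong pairing by number was seen, and a weak one cannot be told from these values. The cause of these shifts was not tested. The planned comparison of protein sequences was not run. Depth limits PSMB10, at 87.8 to 173.8 counts a library, and PSMG4 most, and no statement on PSMA8 or PSMB11 is possible below 3 counts a library.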

Other observations

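The effective length of PSME2 implied by the deposited FPKM and estimated counts ranged from 467.1 to 826.4 bases over the 12 libraries, a 1.77-fold range. PSME2 averaged 63.8 FPKM in control temozolomide libraries and 56.97 in control DMSO libraries, against 41.5 and 45.7 CPM, so the direction differed between the units. Both rest on 1 library, control temozolomide library 3, which had the lowest implied length. Without it, a step added after seeing the data, the lengths were 696.5 to 826.4 bases (1.19-fold), and the mean of the other 2 control temozolomide libraries was 53.6 FPKM and 42.8 CPM, both below control DMSO. Over all 12 libraries the range was at most 1.18-fold for the other proteasome genes tested.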
